A study of Mus musculus with 6 samples.

Results

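Cd9 and 9 further tetraspanins, Cd81, Cd63, Cd82, Cd151, Cd37, Cd53, Tspan4, Tspan3 and Tspan14, were followed in RNA-seq counts of MSR1 knockout (KO) and MSR1 wild-type (WT) macrophages. These 10 genes were chosen by name out of 52550 genes in the deposited count table, with the low Cd9 count of the MSR1 KO libraries already known. Their difference between MSR1 KO and MSR1 WT macrophages is therefore given as a description, with no test. All 10 passed the filter on low counts, as did 16402 genes in all, which were those tested.

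Tetraspanins are small membrane proteins that cross the membrane 4 times and gather other membrane proteins, such as integrins, immunoglobulin superfamily proteins and proteases, into clusters. In macrophages they are known for roles in adhesion, in the fusion of macrophages into giant cells and osteoclasts, in the trafficking of lysosomal membranes and in the release of extracellular vesicles. Cd9 and Cd81 are close relatives that restrain macrophage fusion and that share the partners Ptgfrn and Igsf8, whereas Cd37 and Cd53 are largely restricted to blood cells.

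Both groups of 3 libraries came from C57BL/6 mice and were labelled as BMM derived macrophages. Bone marrow cells had been grown for 7 days in 25 ng/ml M-CSF, the growth factor that drives macrophage differentiation, and the macrophages had then shared a transwell co-culture with BMSCs (bone marrow stem cells) for 48 h. MSR1 (macrophage scavenger receptor 1) takes up modified lipoproteins and other ligands, and the comparison asked how its absence altered macrophages kept with BMSCs. The mice lacked MSR1 in all cells rather than in macrophages alone, and their age and sex were not in the labels. The study calls the 3 libraries of a group biological replicates, and no source says whether each was 1 mouse, a pool or a separate culture.

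Total counts lay between 36143518 and 47417448 per library. CPM values below are counts relative to the TMM-scaled library size, log2 fold changes are MSR1 KO minus MSR1 WT, and the standard error (SE) of each comes from the same edgeR model. Msr1 itself had 43 to 59 CPM in MSR1 KO and 183 to 223 CPM in MSR1 WT libraries, and its log2 fold change was -2.02 (SE 0.14, adjusted p = 0.0012 by edgeR's quasi-likelihood test). Msr1 was thus lower but not at 0 in the libraries labelled MSR1 KO. Across all tested genes, 4.91% had an adjusted p under 0.05, of which those higher in MSR1 KO were 2.25% and those lower were 2.66% of the genes tested. The macrophage genes Lyz2 and Csf1r had the highest CPM of 12 macrophage identity genes, at 13400 ± 654 CPM and 4540 ± 24.3 CPM in MSR1 KO libraries (SD, n = 3).

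The sequences just upstream of the RefSeq starts of 3 of the genes are shown because Cd9 and Cd81 had the lowest MSR1 KO counts relative to MSR1 WT, while Cd53 had the highest level per length and was higher in MSR1 KO. Each is 250 bases of GRCm38.p6, written 5′ to 3′ on the strand of the gene, and capitals mark GGGCGG, the GC box bound by Sp1-type factors, which was searched on both strands. Cd9 is on the minus strand at chr6:125494761-125495010, Cd81 on the plus strand at chr7:143052500-143052749 and Cd53 on the minus strand at chr3:106790150-106790399.
Cd9: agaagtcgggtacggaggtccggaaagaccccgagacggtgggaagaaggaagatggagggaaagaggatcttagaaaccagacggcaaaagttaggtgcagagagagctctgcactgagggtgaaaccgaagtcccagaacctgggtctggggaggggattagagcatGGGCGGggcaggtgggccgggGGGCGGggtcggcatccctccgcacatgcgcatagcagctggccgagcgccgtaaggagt
Cd81: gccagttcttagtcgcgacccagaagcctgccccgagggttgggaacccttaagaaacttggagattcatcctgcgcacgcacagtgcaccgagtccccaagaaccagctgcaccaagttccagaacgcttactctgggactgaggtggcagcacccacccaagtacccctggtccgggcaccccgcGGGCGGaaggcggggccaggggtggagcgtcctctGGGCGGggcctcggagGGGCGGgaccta
Cd53: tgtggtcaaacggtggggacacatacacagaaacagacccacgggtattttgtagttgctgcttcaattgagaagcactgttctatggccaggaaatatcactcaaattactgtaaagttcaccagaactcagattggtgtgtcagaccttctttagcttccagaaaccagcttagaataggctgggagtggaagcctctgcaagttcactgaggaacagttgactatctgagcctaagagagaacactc

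The Cd9 window held 2 GC boxes and 16 CpG dinucleotides at a GC content of 61.6%, and the Cd81 window held 3 GC boxes and 16 CpG dinucleotides at 65.6%. The Cd53 window had no GC box and 2 CpG dinucleotides at 45.2%. Of the 10 genes, 7 had at least 1 GC box in the window, against 32.7% of 32851 RefSeq windows of the same length. The 3 without one were Cd63, Cd53 and Tspan3, of which Cd63 was lower and the other 2 were higher in MSR1 KO libraries. Of the 7 with one, Cd37 was higher and the others had a negative log2 fold change. Whether the GC box goes with direction was not tested. TATAAA was in 0 of the 10 windows and in 12.4% of all windows. GAGGAA, a core bound by ETS factors such as PU.1, was in 4 of the 10, namely Cd63, Cd37, Cd53 and Tspan14, and in 23.3% of all windows. No GAGGAA match shared a base with a GC box. The windows of Cd63 and Tspan3 lay 8356 and 4407 bases from the gene start of the GENCODE annotation. These matches are descriptions of the letters and say nothing of factors bound in these cells.

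Among the 10 genes, Cd9 differed most between the genotypes. Cd81, Cd63, Cd151 and Tspan4 were lower by smaller amounts, Cd37, Cd53 and Tspan3 were higher, and Cd82 and Tspan14 overlapped between groups. All 3 MSR1 KO libraries lay below all 3 MSR1 WT libraries for 5 genes and above them for 3 genes. Over all tested genes, 25.5% had groups that did not overlap, 13.4% with MSR1 KO below and 12.1% with MSR1 KO above. Because the genes were picked with this contrast in view, nothing is read from their count against that share. The median log2 fold change of the 10 genes was -0.24, or -0.15 for the 9 without Cd9, and that of all tested genes was -0.0023.

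**Figure D1:**
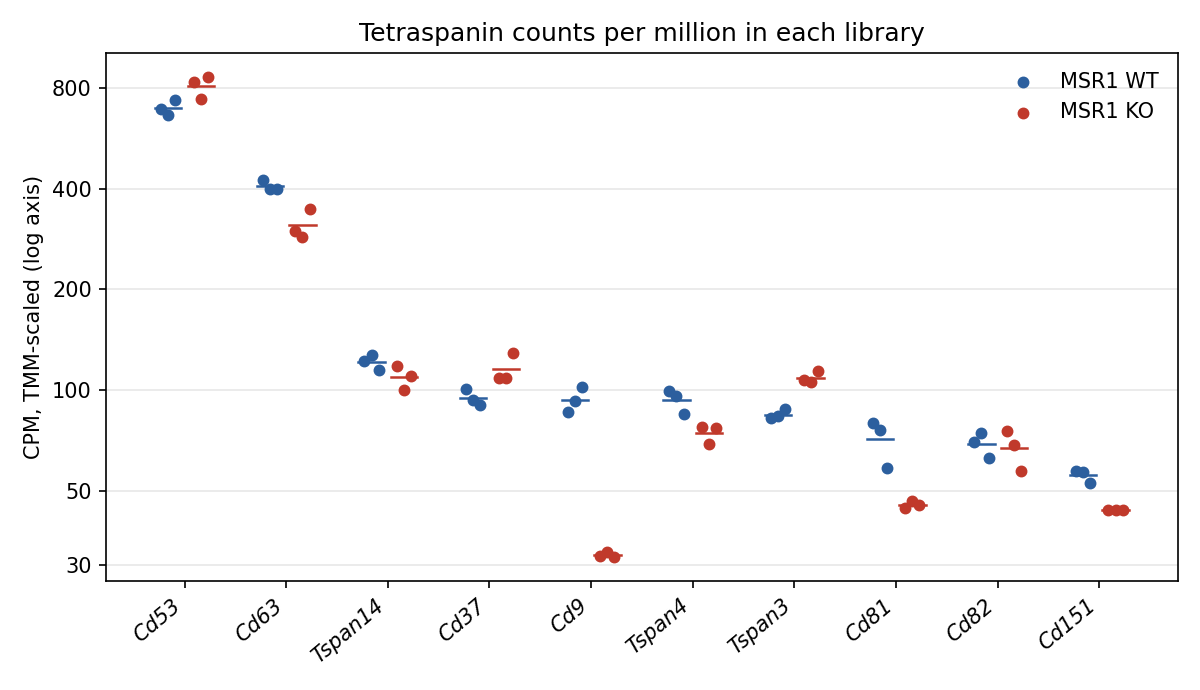
CPM (TMM-scaled, log axis) of the 10 tetraspanins in each of the 3 MSR1 WT libraries (blue) and 3 MSR1 KO libraries (red), with a bar at each group's mean. The 3 MSR1 KO points of Cd9 lie between 31.7 and 32.9 CPM, and its MSR1 WT points lie between 86.2 and 102 CPM.

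Cd9, on the minus strand of chromosome 6 from 125460266 to 125494791 (GRCm38, ENSMUSG00000030342.8), had 1147, 1309 and 1473 counts in MSR1 KO replicates 1 to 3. The MSR1 WT replicates had 3556, 4396 and 4224 counts. Every MSR1 KO library was far below every MSR1 WT library, and the MSR1 KO libraries were nearly equal after scaling. The means were 32.2 ± 0.628 CPM in MSR1 KO and 93.7 ± 8.05 CPM in MSR1 WT macrophages (SD, n = 3 each), so that the MSR1 KO mean was 34.3% of the MSR1 WT mean. The log2 fold change was -1.54 (SE 0.086) and lay between -1.60 and -1.48 with each library left out in turn. By log2 fold change, Cd9 ranked 63 from the lowest of 13611 genes whose mean reached 1 CPM, and 6 from the lowest of the 2275 genes with at least the CPM of Cd9 in MSR1 WT macrophages. Of the exon bases of Cd9, 10.7% overlap Gm26728, a noncoding transcript on the opposite strand, and without a known strand setting reads there cannot be told apart.

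Cd81, the closest partner of Cd9 and a subunit of the B cell co-receptor, had 44.5, 46.6 and 45.2 CPM in MSR1 KO replicates 1 to 3. In MSR1 WT replicates 1 to 3 it had 79.5, 75.9 and 58.3 CPM. The MSR1 WT libraries were spread more widely than the MSR1 KO libraries, with replicate 3 the lowest for Cd81 although it was the highest for Cd9. The log2 fold change of Cd81 was -0.65 (SE 0.12), and its MSR1 KO mean was 63.8% of its MSR1 WT mean. The ratio of Cd9 to Cd81 counts was 0.718, 0.705 and 0.701 in MSR1 KO and 1.08, 1.22 and 1.75 in MSR1 WT libraries. Cd9 reads thus outnumbered Cd81 reads in each MSR1 WT library, whereas Cd81 reads outnumbered Cd9 reads in each MSR1 KO library. Cd9 and Cd81 were the only 2 of the 10 genes whose fold change was above 1.5, and without MSR1 WT replicate 1 the log2 fold change of Cd81 was -0.56, which is under that size.

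Cd63, a tetraspanin of late endosomes and lysosomes that is widely used as a marker of exosomes, had 300, 287 and 347 CPM in MSR1 KO and 424, 399 and 400 CPM in MSR1 WT replicates 1 to 3. The highest MSR1 KO library did not reach the lowest MSR1 WT library. Its log2 fold change was -0.39 (SE 0.084).

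Cd151, which binds laminin-binding integrins, had 43.8, 43.9 and 43.9 CPM in MSR1 KO against 57.1, 57 and 52.8 CPM in MSR1 WT replicates 1 to 3. Tspan4, a tetraspanin of migrasomes, the vesicle-bearing structures left behind by migrating cells, had 77.5, 69.2 and 77 CPM in MSR1 KO and 99.5, 95.8 and 84.7 CPM in MSR1 WT replicates 1 to 3. Neither gene overlapped between groups, and their log2 fold changes were close, at -0.34 (SE 0.073) for Cd151 and -0.32 (SE 0.089) for Tspan4. The 2 genes are neighbours on the plus strand of chromosome 7, where Cd151 runs from 141467392 to 141471473 and Tspan4 starts 3766 bases downstream. The ratio of Cd151 to Tspan4 counts was 0.59 ± 0.0385 in MSR1 KO and 0.597 ± 0.025 in MSR1 WT libraries (SD, n = 3 each), which differed by less than either SD. Of the exon bases, 7.04% of Cd151 and 13.4% of Tspan4 overlap genes on the opposite strand (Gm10575 and Chid1).

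The 2 tetraspanins typical of leukocytes went the other way. Cd53 had 836, 744 and 864 CPM in MSR1 KO and 693, 664 and 735 CPM in MSR1 WT replicates 1 to 3. Its groups lay apart by a small margin, with MSR1 KO replicate 2 just above MSR1 WT replicate 3, and its log2 fold change was 0.22 (SE 0.077). Cd37 had 109, 109 and 129 CPM in MSR1 KO and 101, 93.2 and 90.5 CPM in MSR1 WT replicates 1 to 3, a log2 fold change of 0.29 (SE 0.09). The ratio of Cd37 to Cd53 counts was 0.142 ± 0.01 in MSR1 KO and 0.136 ± 0.0116 in MSR1 WT libraries (SD, n = 3 each), again closer than either SD. Tspan3, a broadly expressed tetraspanin, had 107, 106 and 114 CPM in MSR1 KO and 82.3, 83.4 and 87.7 CPM in MSR1 WT replicates 1 to 3. It had the highest log2 fold change of the 10 genes, 0.37 (SE 0.07).

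Cd82, also known as a suppressor of metastasis, had 75.6, 68.5 and 57.4 CPM in MSR1 KO and 69.8, 74.3 and 62.7 CPM in MSR1 WT replicates 1 to 3. The highest and the lowest of the 6 values were both in MSR1 KO libraries, and the log2 fold change of -0.038 (SE 0.12) moved between -0.12 without MSR1 KO replicate 1 and 0.067 without MSR1 KO replicate 3. Tspan14, which carries the protease ADAM10 out of the endoplasmic reticulum to the cell surface, had 118, 100 and 110 CPM in MSR1 KO and 122, 127 and 115 CPM in MSR1 WT replicates 1 to 3. MSR1 KO replicate 1 lay within the MSR1 WT range, and the log2 fold change was -0.15 (SE 0.083).

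Levels of different genes were compared as CPM per kilobase (kb) of merged exons. In MSR1 WT macrophages, Cd53 was highest at 400 ± 20.5 CPM per kb, followed by Cd63 at 111 ± 3.93 and Cd9 at 45.9 ± 3.94 (SD, n = 3 each). Tspan14 came next at 45.8 ± 2.24 CPM per kb and overlapped with Cd9 and with Tspan4 at 42.9 ± 3.53, which did not overlap with Cd37. Cd37 (26.9), Cd81 (24.7), Cd82 (22.9), Cd151 (20.3) and Tspan3 (19.8 CPM per kb) followed, and among them only Cd82 and Cd151 were neighbours whose libraries did not overlap.

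In MSR1 KO macrophages, Cd9 had 15.7 ± 0.307 CPM per kb and was the last of the 10, level with Cd81 at 15.8 ± 0.385 and Cd151 at 16 ± 0.0314 (SD, n = 3 each), whose libraries overlapped. Cd53 at 468 ± 36 and Cd63 at 84.6 ± 8.53 CPM per kb remained first and second. Tspan14 (41.2), Tspan4 (34.2) and Cd37 (32.8 CPM per kb) came next, and Tspan4 and Cd37 overlapped. Tspan3 moved up from the last place to the sixth at 25.6 CPM per kb, where it overlapped with Cd82 at 22.4. With the longest transcript of each gene in place of merged exons, Cd9 ranked 3 in MSR1 WT and 9 in MSR1 KO macrophages, Tspan3 ranked 7 and 3, and Cd151 was last in both.

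**Figure D2:**
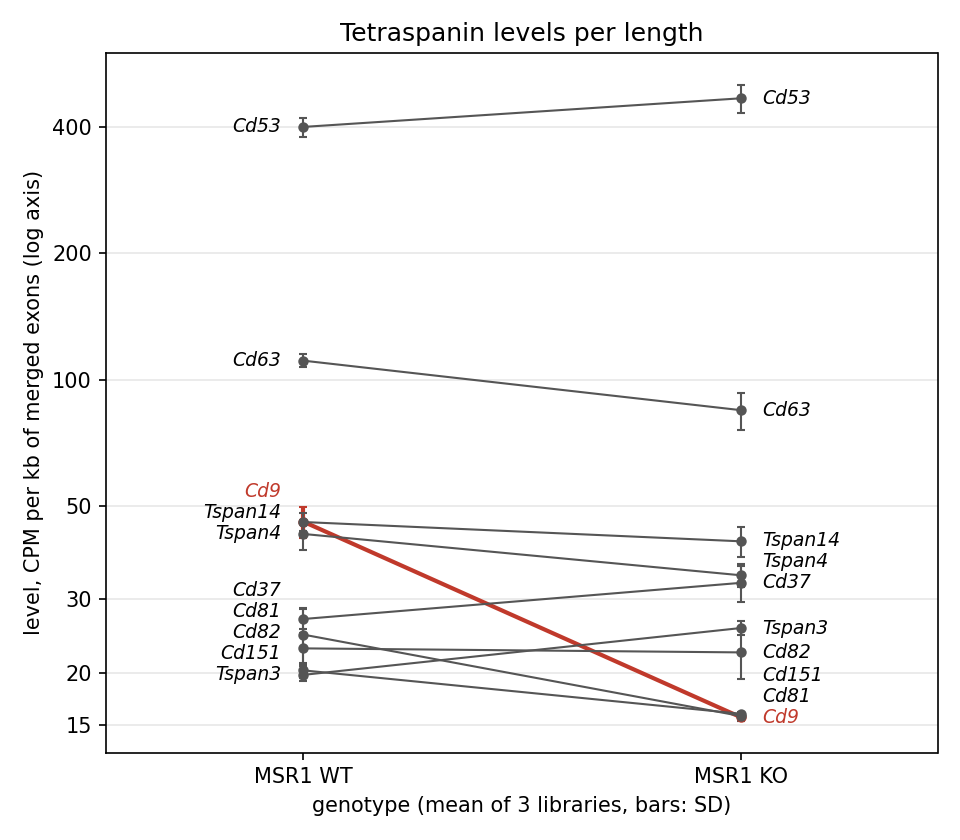
Level of the 10 tetraspanins in CPM per kb of merged exons (log axis) in MSR1 WT and MSR1 KO macrophages, as the mean of 3 libraries with the SD. Cd9 (red) goes from 45.9 to 15.7 CPM per kb, from the third place to the last.

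The summed CPM of all 31 tetraspanin genes in the table was 1880 ± 115 in MSR1 KO and 1960 ± 23.6 in MSR1 WT libraries (SD, n = 3 each), and the ranges of 1760 to 1990 and 1930 to 1980 overlapped. The 10 genes supplied 91.1 to 91.9% of these counts in each library. Cd9 made up 1.72 ± 0.14% of tetraspanin counts in MSR1 KO against 4.79 ± 0.437% in MSR1 WT libraries. Cd63 made up 16.5 ± 0.852% against 20.8 ± 0.521%, and Cd53 43.3 ± 0.879% against 35.6 ± 1.72%. The number of Cd53 counts per Cd9 count was 25.4 ± 2.42 in MSR1 KO and 7.46 ± 0.497 in MSR1 WT libraries. Tetraspanin counts in MSR1 KO libraries thus held more Cd53 and less Cd9 and Cd63, at a sum that was not separated between groups.

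Of the 21 other tetraspanins in the table, 15 had enough counts to be tested, and none passed an adjusted p of 0.05 in either direction by edgeR's quasi-likelihood test. At an unadjusted p under 0.05, 0 were higher and 1 was lower, and the Wald test of DESeq2 also called 0. Their median log2 fold change was -0.29. Tspan6 was the 1 with an unadjusted p under 0.05, at 3.13 ± 0.441 CPM in MSR1 KO and 5.1 ± 0.777 CPM in MSR1 WT libraries (SD, n = 3 each), and its log2 fold change was -0.70 (SE 0.2, adjusted p = 0.094 by edgeR). At levels of a few CPM, smaller differences may have been missed, and this was not tested.

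Tspan5, Tspan14, Tspan15, Tspan17 and Tspan33 belong with Tspan10 to the TspanC8 group, which binds ADAM10. Tspan5 had 7.29 to 11.1 CPM in MSR1 KO and 11.7 to 14.1 CPM in MSR1 WT libraries (log2 fold change -0.42, SE 0.18, adjusted p = 0.27 by edgeR). Tspan33 had 3.01 to 3.65 CPM and 2.18 to 2.88 CPM (log2 fold change 0.32, SE 0.21, adjusted p = 0.48 by edgeR). The groups of these 2 genes lay apart in opposite directions without passing the test. Tspan17 overlapped at 9.48 ± 3.83 and 11.4 ± 1.63 CPM (SD, n = 3 each), and Tspan15 and Tspan10 were under 1 CPM in every library.

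Tspan31 had the highest CPM of the other tetraspanins, at 103 ± 6.06 CPM in MSR1 KO and 103 ± 3.3 CPM in MSR1 WT libraries (SD, n = 3 each). Its log2 fold change was 0.00056 (SE 0.074), but 29.2% of its exon bases overlap Cdk4 on the opposite strand. The remaining 8 genes with at least 1 CPM had log2 fold changes of -0.61 (Tspan2), -0.52 (Tspan18), -0.49 (Tspan12), -0.45 (Tspan32), -0.29 (Tspan7), -0.04 (Tspan13), 0.028 (Rom1) and 0.039 (Tspan9). Their adjusted p-values by edgeR lay between 0.31 and 0.97, and their groups overlapped. Upk1b of urothelium and Prph2 of photoreceptors were at 0 counts in all 6 libraries.

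**Figure D3:**
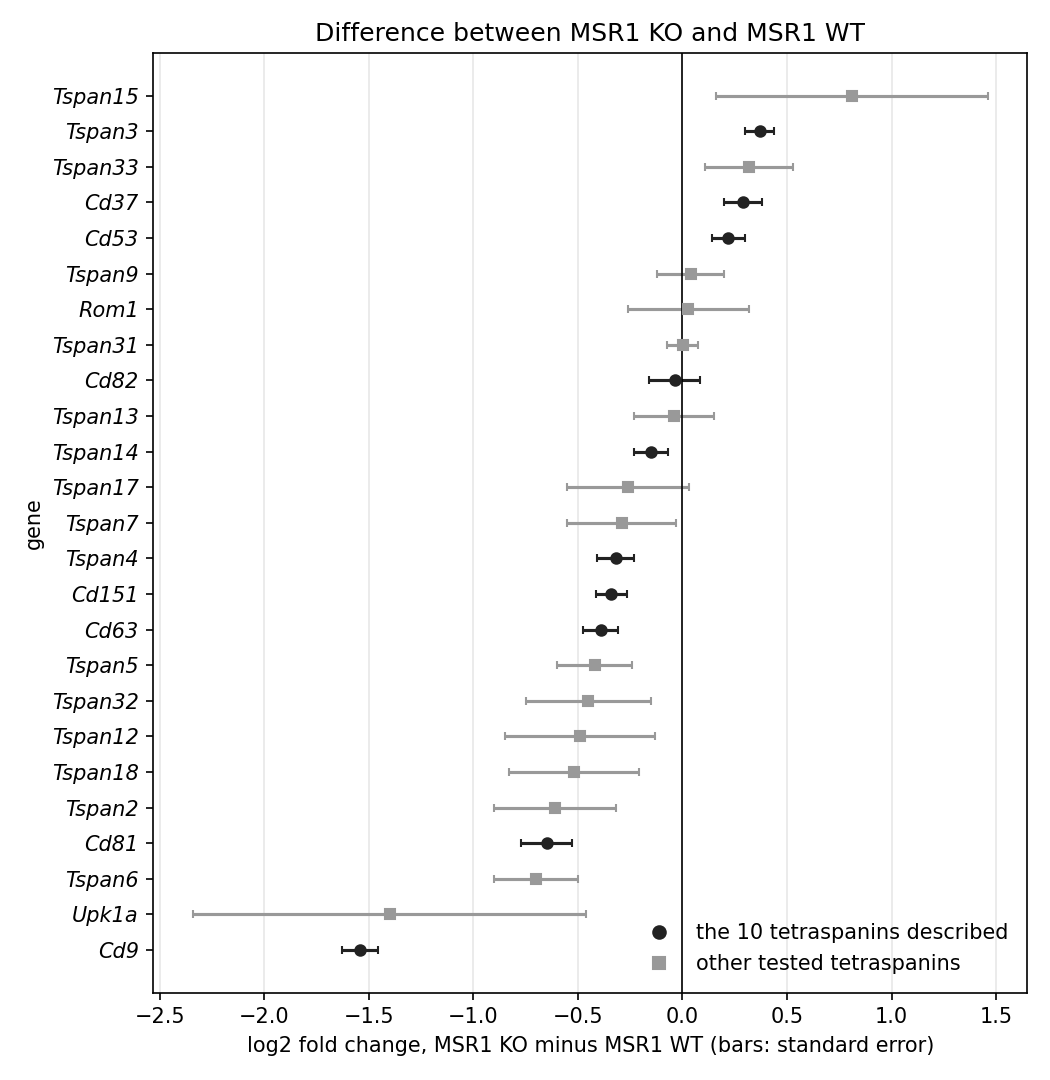
Log2 fold change (MSR1 KO minus MSR1 WT, bars are SE) of the 10 tetraspanins described (black circles) and the 15 other tetraspanins tested (grey squares), ordered by value. Cd9 lies at -1.54 with an SE of 0.086, and the only other gene below -1, Upk1a, has an SE of 0.94.

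Proteins that associate with tetraspanins were examined as a list of 35 genes, 31 of which were tested. The adjusted p was under 0.05 for 1 that rose and 4 that fell, against 2.25% and 2.66% of all tested genes, and their median log2 fold change was -0.12. Ptgfrn, the immunoglobulin superfamily protein that binds Cd9 and Cd81 directly, had 8.27, 10.7 and 7.68 CPM in MSR1 KO and 21.6, 19.2 and 16.1 CPM in MSR1 WT replicates 1 to 3. It fell by 1.10 on the log2 scale (SE 0.17, adjusted p = 0.018 by edgeR). Igsf8, the other main immunoglobulin superfamily partner of Cd9 and Cd81, had 59 ± 2.64 and 63.7 ± 8.46 CPM (SD, n = 3 each) and did not pass the test (log2 fold change -0.11, adjusted p = 0.64 by edgeR).

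Among receptors and integrins of the list, Egfr fell by 0.68 (SE 0.13, adjusted p = 0.027 by edgeR), and Itga6, a subunit of the laminin-binding integrins that pair with Cd151, fell by 0.36 on the log2 scale (SE 0.068, adjusted p = 0.027). Cd36, a scavenger receptor that associates with Cd9 in macrophages, had 1700 to 1880 CPM in MSR1 KO and 2110 to 2420 CPM in MSR1 WT libraries (log2 fold change -0.32, SE 0.073, adjusted p = 0.048 by edgeR). Kit, the stem cell factor receptor, rose from 10.2 ± 3.4 to 21 ± 1.31 CPM (SD, n = 3 each; log2 fold change 1.04, SE 0.22, adjusted p = 0.039 by edgeR). Of the partners with the highest CPM, Itgam (log2 fold change -0.32, adjusted p = 0.25 by edgeR) and Msn, the linker moesin (0.12, adjusted p = 0.43), did not pass the test. These 5 calls depended on the libraries used. Without MSR1 KO replicate 1, MSR1 KO replicate 3, MSR1 WT replicate 1 or MSR1 WT replicate 2 all of them were lost, with adjusted p-values of 0.051 to 0.16. Without MSR1 KO replicate 2, Ptgfrn and Itga6 passed, and without MSR1 WT replicate 3 all but Cd36 did (adjusted p = 0.092).

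The ADAM10 list held 30 genes, of which 29 were tested. They were Adam10, the sheddase that TspanC8 tetraspanins carry, related genes such as Adam17 and Rhbdf2, and genes of shed proteins. Which sheddase acts on each protein was not tested. The adjusted p was under 0.05 for 2 that rose and 1 that fell, against 2.25% and 2.66% of all tested genes. The median log2 fold change was 0.023. Adam10 itself had 237 ± 13.5 CPM in MSR1 KO and 234 ± 7.48 CPM in MSR1 WT libraries (SD, n = 3 each; log2 fold change 0.018, SE 0.069). Notch3, a receptor cleaved during Notch signalling, had 2.87 to 2.99 CPM in MSR1 KO and 5.75 to 8.28 CPM in MSR1 WT libraries and fell by 1.30 on the log2 scale (SE 0.19, adjusted p = 0.016 by edgeR). Axl, a receptor for the uptake of apoptotic cells, rose by 0.57 (SE 0.13, adjusted p = 0.048), and the chemokine Cxcl16 rose by 0.32 (SE 0.075) with an adjusted p by edgeR that lay under the threshold but rounded to 0.05. The genes of the list with the highest CPM, Lrp1 (log2 fold change -0.23), Tnfrsf1b (-0.024) and App (-0.063), did not pass the test. The Notch3 call was lost without MSR1 KO replicate 1 or MSR1 WT replicate 1, where none of the 3 genes passed. Without MSR1 KO replicate 2 or MSR1 WT replicate 2, Axl and Cxcl16 were lost (adjusted p-values of 0.11 to 0.18), without MSR1 KO replicate 3 the same 2 genes were lost (0.074 to 0.11), and without MSR1 WT replicate 3 Cxcl16 was lost (0.093).

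Genes of exosome formation, in which Cd63, Cd9 and Cd81 are the usual surface markers, formed a list of 40 genes of which 38 were tested. The adjusted p was under 0.05 for 2 that rose and 4 that fell, against 2.25% and 2.66% of all tested genes. The median log2 fold change was -0.019. Syndecans, the heparan sulfate proteoglycans that bring cargo to vesicles through syntenin, made up 3 of the 6 genes and did not move together. Sdc1 had 20.2, 25.5 and 20.5 CPM in MSR1 KO and 44.2, 46.9 and 57.8 CPM in MSR1 WT replicates 1 to 3, and it fell by 1.17 on the log2 scale (SE 0.14, adjusted p = 0.0084 by edgeR). Sdc2 fell by 0.69 (SE 0.1, adjusted p = 0.016), whereas Sdc3, the syndecan with the highest CPM, rose from 825 ± 154 to 1230 ± 99.9 CPM (SD, n = 3 each; log2 fold change 0.58, SE 0.13, adjusted p = 0.043 by edgeR). Sdc4 was at 100 to 115 CPM in MSR1 KO and 125 to 135 CPM in MSR1 WT libraries (log2 fold change -0.30, adjusted p = 0.077 by edgeR).

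The other exosome genes past the threshold were Smpd3, the neutral sphingomyelinase that makes ceramide (-0.80, adjusted p = 0.048 by edgeR), the small GTPase Rab31 (-0.36, adjusted p = 0.027) and the ESCRT-III subunit Chmp4b (0.34, adjusted p = 0.049). Sdcbp, which encodes syntenin (0.092, adjusted p = 0.53 by edgeR), and the vesicle chaperone Hspa8 (0.057, adjusted p = 0.83) were high in CPM and did not pass. The Sdc1 call was kept with each library left out in turn. Of the 6 calls, Sdc1 alone remained without MSR1 KO replicate 1 or MSR1 WT replicate 1, Sdc1 and Sdc2 without MSR1 KO replicate 2, MSR1 KO replicate 3 or MSR1 WT replicate 2, and Sdc1, Sdc2, Sdc3 and Rab31 without MSR1 WT replicate 3. The adjusted p-values of the calls lost in these fits were 0.061 to 0.17.

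**Figure D4:**
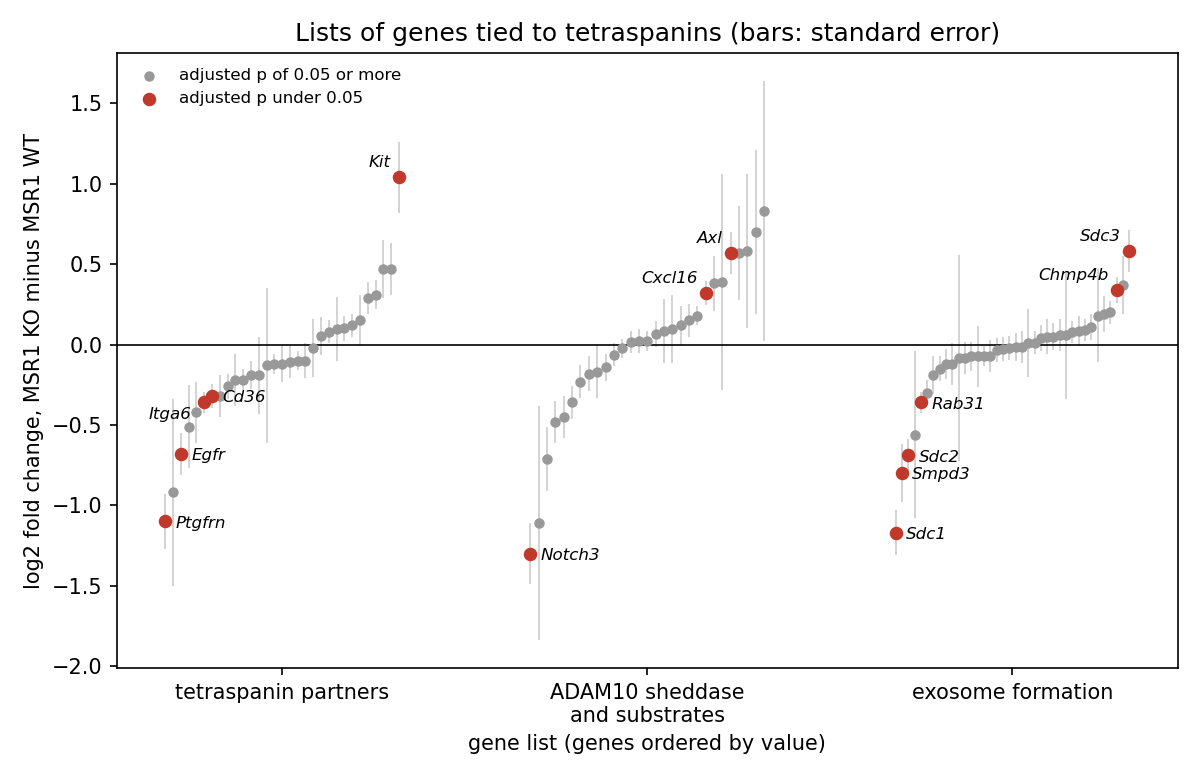
Log2 fold change (MSR1 KO minus MSR1 WT, bars are SE) of the tested genes of 3 lists, 31 tetraspanin partners, 29 genes of the ADAM10 list and 38 exosome genes, ordered by value within each list. Red marks an adjusted p under 0.05, as for Ptgfrn at -1.10 and Sdc1 at -1.17.

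Genes were also ranked by how closely their log2 CPM followed that of Cd9 over the 6 libraries, among 13610 genes with at least 1 CPM. The 5 closest were the elastase gene Mmp12 (Pearson r 0.9975, log2 fold change -2.32), the cytokine receptor gene Il11ra1 (0.9947, -0.48), the hypoxia-inducible transcription factor gene Epas1 (0.9947, -1.02), Hpgd, which breaks down prostaglandins (0.9941, -5.90), and Anxa1 (0.9926, -1.04), which encodes the anti-inflammatory annexin A1. The 6 libraries form 2 groups, so a gene that is lower in all MSR1 KO libraries has a high r whatever it does within a group, and 203 genes had an r above 0.95. Once each group's mean was taken off, r with Cd9 was 0.88 for Mmp12, 0.81 for Anxa1, 0.77 for Il11ra1, 0.71 for Epas1 and -0.1 for Hpgd. The 5 genes were picked by their r over the same 6 libraries, which partly sets these values. They are therefore not separate evidence that the genes vary with Cd9 within a group. Among the tetraspanins, r over the 6 libraries was 0.96 for Cd151, 0.89 for Cd63 and 0.88 for Cd81, and it was -0.96 for Tspan3. Taking off the group means turned it to -0.89 for Cd151, -0.43 for Cd63, -0.9 for Cd81 and 0.49 for Tspan3. Tspan4 also changed sign, to -0.89, whereas Cd37 kept its sign, at -0.87 over the 6 libraries and -0.58 within groups. Within MSR1 WT, replicate 3 was the highest in Cd9 and the lowest in Cd151 and Cd81, whereas within MSR1 KO replicate 2 was the highest in both Cd9 and Cd81 and the Cd151 values were nearly equal.

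Markers of other cells were compared because the wells also held BMSCs behind the transwell membrane and because tetraspanins are expressed by many cell types. In bulk RNA, fewer cells of a type and less RNA per cell cannot be told apart. The summed level of 20 stromal markers was 2840, 3640 and 2840 CPM in MSR1 KO and 4690, 3850 and 4320 CPM in MSR1 WT replicates 1 to 3, and the MSR1 KO mean was 72.5% of the MSR1 WT mean. None of the 20 was at 0 in all libraries, and their median log2 fold change was -0.52. By edgeR 8 fell and 0 rose at an adjusted p under 0.05, against 2.66% and 2.25% of all tested genes. At an unadjusted p under 0.05, 15 fell and 1 rose, and the share over all genes was not taken. By DESeq2 12 fell and 1 rose, where 792 fell and 694 rose of all 25014 genes tested. Leaving out replicate 1 or replicate 3 of MSR1 KO, the number of stromal markers that fell became 1 or 3. Leaving out MSR1 WT replicate 1 it became 0, and leaving out any other library it was 7 to 10. Those with the highest CPM were Fn1 (637 ± 93.7 against 824 ± 27 CPM) and Col1a2 (516 ± 85.6 against 678 ± 54.7 CPM; SD, n = 3 each). Neither passed the test (adjusted p = 0.088 and 0.11 by edgeR). Thy1 went the other way, with all MSR1 KO libraries above (log2 fold change 1.31, adjusted p = 0.091 by edgeR). Lum was also higher on average (0.46), but its groups overlapped. Stromal cells also express Cd9, Cd81, Cd63, Cd151, Ptgfrn, Egfr, Sdc1 and Sdc2, and the part of these markers in their values was not tested.

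The summed macrophage identity genes were at 27500 to 28800 CPM in MSR1 KO and 27900 to 30400 CPM in MSR1 WT libraries, with 1 of 12 higher (Fcgr1) and 1 lower (Mrc1). Of 10 megakaryocyte markers, a list included because platelets are rich in Cd9, 7 were tested and 0 were called by edgeR or DESeq2 (0 higher and 1 lower at an unadjusted p under 0.05 by edgeR). Their sum was 442 to 823 CPM against 441 to 638 CPM, nearly all of it Pf4, whereas Ppbp was at 5.76 ± 1.64 and 8.87 ± 1.64 CPM (SD, n = 3 each), and Gp9 was under 1 CPM. Neutrophil markers led by Ngp and S100a9 summed to 665 to 1080 CPM against 431 to 819 CPM with 0 of 10 called by edgeR (3 higher at an unadjusted p under 0.05, and 2 higher by DESeq2). B cell markers summed to 24.8 to 28.1 CPM against 25.5 to 29.3 CPM, with 1 of 3 tested lower (Ebf1), Cd79b at 20.6 and 17 CPM, and Blk at 0.

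Dendritic cell markers summed to 19.5 to 29 CPM in MSR1 KO against 79.2 to 147 CPM in MSR1 WT libraries. This came from Itgax, which fell by 2.50 on the log2 scale (SE 0.25, adjusted p = 0.0045 by edgeR) and was the 1 of 7 tested that was called, while 2 others were higher at an unadjusted p under 0.05. These were Xcr1 (log2 fold change 2.04, adjusted p = 0.06 by edgeR) and Ccr7 (2.49, adjusted p = 0.18), which, like Clec9a (1.80, adjusted p = 0.36) and Flt3, had means under 1 CPM in both groups. Zbtb46 was at 1.08 and 1.57 CPM. Mast cell markers summed to 30.6 to 32.9 CPM against 12.7 to 22.4 CPM, with Kit the 1 of 4 tested that was called, Hdc at 6.35 and 3.72 CPM and Mcpt4 and Tpsb2 at 0. Endothelial markers summed to 119 to 144 CPM against 82.3 to 120 CPM, with 1 of 8 called (Pecam1, higher) and Cdh5 at 32.4 and 25.1 CPM. Vwf went the other way, at 3.18 ± 1 and 8.11 ± 2.83 CPM (SD, n = 3 each; log2 fold change -1.36, SE 0.32, adjusted p = 0.051 by edgeR), with all MSR1 KO libraries below. The part of these lists in the tetraspanin values was not tested.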

How the data were processed

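RNA was sequenced from 3 MSR1 KO and 3 MSR1 WT macrophage libraries. The submitters' processing notes list fastp 0.17.1, HISAT2 2.1.0, DESeq2 1.18.1 and R 3.4.3, whereas the study's methods name TopHat as aligner. The counting program, strand setting and genome build were not given in the sources used here. The authors deposited raw counts per gene without normalization, a signal column per library (each count over that library's size factor), and a log2 fold change and p-values of their own comparison, and only the counts were used here. Of 52550 gene identifiers, 52403 were in GENCODE M21 (GRCm38) and 49909 of them matched it in start and end, and positions are given on that build.

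Counts were filtered by filterByExpr, scaled by TMM and tested with the quasi-likelihood test of edgeR 4.0.16 (R 4.3.3), with Benjamini-Hochberg adjustment over 16402 genes. Log2 CPM used a prior count of 2, and SE is the absolute log2 fold change divided by √F. Libraries of a group differed by 25.7 times sampling noise or more (chi-square per gene), so none was a duplicate. P-values measure the spread between the libraries. The 10 tetraspanins and all gene lists were chosen with earlier results of these data known. Genes were named by a rule: all 10, other tetraspanins of at least 1 CPM, of each list the called genes of largest change (up to 6) and the 3 most abundant, of each marker list the 2 most abundant, and the 5 genes most correlated with Cd9. Genes at 0, Adam10, Igsf8, Sdc4, Fcgr1, Mrc1, Gp9, Flt3, Xcr1, Ccr7, Clec9a and Vwf and the low TspanC8 genes were added after their values were seen. Thy1 and Lum were added in the same way. RefSeq windows matched all 10 genes. The procedure was tested on simulated counts. Alternatives were DESeq2 1.42.0 (Wald test, and its size factors in edgeR), library size alone, 2 other filters, a replicate block and each library left out. Protein sequences were not used here.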

Additional observations from a re-analysis of the deposited data

How the results depend on the processing

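For the 10 tetraspanins, the median log2 fold change was -0.24. With 1 library left out it lay between -0.28 (without MSR1 WT replicate 3) and -0.18 (without MSR1 KO replicate 2). All 120 log2 fold changes under 12 alternatives stayed within 1 SD of the reported values. Leaving out 1 of 3 libraries moves a group mean by less than the SD of its libraries, so this limit could hardly be exceeded there. In those fits Cd81 lay between -0.77 and -0.56, and Cd82 changed sign, between -0.12 and 0.067. No other tetraspanin was called under any alternative. Of 420 values of Msr1 and the other genes named from the lists, 323 kept their status, called or not, and direction. These include the values of genes not called as reported, which had no call to lose. A call was lost in 83 values, and 14, all of genes not called in either fit, changed sign. Of the genes called as reported, Msr1 and Sdc1 kept the call under all 12 alternatives, and Cxcl16 and Chmp4b under 3. With 1 library left out, Tspan9 lay between -0.041 and 0.13, Tspan13 between -0.17 and 0.17, Tspan17 between -0.55 and 0.018, Tspan31 between -0.045 and 0.031, Rom1 between -0.23 and 0.19 and Hspa8 between -0.022 and 0.18. Tspan31 was also at -0.032 and Rom1 at -0.006 with library size alone, and Tspan31 at -0.00035 with no filter and -0.00063 with the block. Calls in the lists depended on the setting, and the cause was not tested. Higher tetraspanin partners numbered 1 as reported, 0 with no filter, 3 by DESeq2, 0 with the replicate block and 0 to 1 with 1 library left out. Lower partners numbered 4, with 1 under the block and 0 to 3 with 1 library left out. In the ADAM10 list, the 2 higher genes became 0 with library size alone, with no filter and with the block, and 0 to 2 with 1 library left out. The 1 lower gene there became 4 by DESeq2, 0 with the block and 0 to 1 with 1 library left out. In the exosome list, the 2 higher genes became 1 with library size alone, 0 with no filter, 0 with the block and 0 to 1 with 1 library left out, and the 4 lower genes became 1 with the block and 1 to 3 with 1 library left out.

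Over all genes, 369 were higher and 436 lower as reported, 694 and 792 by DESeq2, 237 and 288 with no filter, and 18 and 53 without MSR1 WT replicate 1. The balance turned without MSR1 KO replicate 3 (183 higher and 151 lower) and without MSR1 WT replicate 3 (407 and 372). With library size alone there were 314 and 516, which moved the median over all genes to -0.034. The labels number the replicates 1 to 3 in both groups, but deviations of same-numbered libraries from their group means had correlations of -0.026, 0.02 and -0.0055, and not every library correlated best with its own number, so the numbers were not taken as pairs. The fit with the replicate block called 59 higher and 78 lower genes. With 3 libraries a group, small differences of genes at a few CPM may have been missed, and the size that could be detected was not tested.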
